A study of Mus musculus with 8 samples.

Results

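The B cell receptor signalling genes described here were Cd79a, Cd79b, Ms4a1, Cd22, Lyn, Blk, Syk, Blnk and Plcg2, 9 of the 20807 protein-coding genes that were placed on the autosomes. They were chosen by name, with earlier results of these data known. Each gene was represented by the 50 kb bin of the mouse genome (GRCm38) that holds its annotated start, with all bins up to 2 Mb away on each side. All 9 start bins were measured in each of 8 libraries. The measurement was in situ HiC, in which crosslinked chromatin is cut with the enzyme MboI, ends that lie close together are ligated, and each sequenced read pair stands for 1 such contact.

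The cells were B cells of male C57BL/6 mice (C57BL/6 Pep3b background in the study's methods), isolated as naive cells, labelled with the division dye CellTrace Violet (CTV) and cultured with 25 μg/ml lipopolysaccharide (LPS), a bacterial product that activates B cells. There were 4 groups of 2 biological replicates, taken 3 h, 10 h, 33 h and 33 h after LPS was added. The 33 h groups were imminent division, bulk cells just before the first division, and pre-S, cells not yet in S phase. The cells of the first 3 groups were sorted as activated and undivided (TCRβ- and CD69+ with the highest CTV). Their gate held no cell cycle marker, so imminent division can include cells not yet in S phase. Pre-S cells came from C57BL/6 FUCCI mice, which carry fluorescent reporters of the cell cycle, and were sorted as CD69+ cells with the highest CTV that were mAG- and mKO2hi. Every group had received LPS, so no untreated sample enters a comparison. Strain, sort gate and group cannot be told apart for pre-S.

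Libraries held between 88703088 and 218945191 read pairs, and 70.9% to 75.1% of the autosomal pairs joined 2 places of the same chromosome. The 2 imminent division libraries were the deepest. They also held more contacts at intermediate distances: per 1000000 pairs within chromosomes, an average pair of bins 500 kb apart had 0.254 and 0.249 counts in imminent division against 0.192 in both 10 h libraries and 0.204 and 0.202 in pre-S. HiC records contacts and not RNA, so the cell type could be checked only by compartment, the division of the genome into an active (A) and an inactive (B) part. The start regions of 10 of 10 B cell markers lay in A, but so did those of 10 of 10 T cell and 10 of 10 myeloid markers, and 5 of 10 liver and neuron markers, so this check does not separate blood cell types.

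The B cell receptor is a membrane immunoglobulin that signals through a pair of chains, CD79A and CD79B, whose cytoplasmic tails are phosphorylated by SRC family kinases such as LYN and BLK. The kinase SYK binds the phosphorylated tails and phosphorylates the adaptor BLNK, which brings in phospholipase C gamma 2 (PLCG2) to make the second messengers that release calcium and activate protein kinase C. CD22 is an inhibitory coreceptor that LYN phosphorylates, and CD20, the product of Ms4a1, is a B cell membrane protein associated with calcium responses.

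The starts lie on 7 chromosomes. Cd79a starts at chr7:24897381 in the bin chr7:24849956-24900058, which also holds the starts of Gm9844, Lypd4, Dmrtc2 and Rps19. Cd22, on the same chromosome, starts at chr7:30880342 in the bin chr7:30850161-30900086 with Ffar3 and Ffar1. Cd79b starts in chr11:106299592-106350099 with Gh, a growth hormone gene, and Ms4a1 in chr19:11250379-11300082 with its family member Ms4a5. Blk starts in chr14:63400014-63449928 with Fam167a. The bins of Lyn (chr4:3650130-3700098), Syk (chr13:52549949-52599661), Blnk (chr19:40950048-41000056) and Plcg2 (chr8:117450074-117499969) hold no other protein-coding start. A value of a shared bin belongs to every gene in it. The Plcg2 start lies 1.68 kb and the Cd79a start 2.68 kb from the end of their bins, so the body of each gene continues into the next one. Lyn lies near the end of chromosome 4, and only 11 usable bins lie on its short side against 40 on the other.

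The start bins held 106 (Lyn) to 142 (Cd79b) MboI fragments, where the median start bin of the genome held 123. RefSeq entries (GRCm38.p6) were found for 5 of the 9 genes, Cd79a, Cd22, Syk, Blnk and Plcg2. The 250 bases before the start of Cd22 and Blnk are printed, because each holds a motif of a transcription factor family of B cells. Capitals mark the MboI site GATC, the inverted repeat bound by early B cell factor (TCCC and GGGA with any 2 bases between), and the octamer ATGCAAAT bound by OCT factors, searched on both strands. In Cd22 the repeat overlaps a GATC by 2 bases. The RefSeq starts lie 1314 (Cd22) and 314 (Blnk) bases from the annotated starts used for the bins.
Cd22, chr7:30879029-30879278, minus strand: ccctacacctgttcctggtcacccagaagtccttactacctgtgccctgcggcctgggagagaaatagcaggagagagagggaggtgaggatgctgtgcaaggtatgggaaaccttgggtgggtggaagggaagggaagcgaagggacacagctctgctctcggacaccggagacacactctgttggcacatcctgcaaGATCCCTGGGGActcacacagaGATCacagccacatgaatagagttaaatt
Blnk, chr19:40994222-40994471, minus strand: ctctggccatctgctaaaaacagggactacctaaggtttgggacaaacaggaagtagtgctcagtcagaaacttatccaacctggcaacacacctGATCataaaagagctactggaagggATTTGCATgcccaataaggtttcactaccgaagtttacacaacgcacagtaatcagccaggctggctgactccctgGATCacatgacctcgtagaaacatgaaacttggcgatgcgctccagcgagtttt
GATC was found in the windows of 4 of the 5 genes and in 41.9% of all 32851 windows of this length. The repeat was found in Cd22 only, against 0.779% of all windows, and the octamer in Blnk only, against 1.6%. These matches describe letters and not binding.

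The first question was how many contacts each start bin made within 2 Mb, the summed contacts, and whether they changed as the cells were activated. Counts were scaled between libraries with loess offsets, which set the typical start bin to no change. A fall or rise of these sums is therefore relative to the typical start bin, and raw sums per read pair were not compared. Imminent division differed from 10 h at all 9 start bins (edgeR quasi-likelihood test, false discovery rate [FDR] under 5%): 8 fell, by 0.15 to 0.32 on the log2 scale, and Ms4a1 rose. Of 13254 start bins tested across the genome, 21.9% were called lower and 22.3% higher in the same comparison. Pre-S was lower than 10 h at 6 members (18.1% of all start bins lower), and no member was called between 10 h and 3 h (0.0679% of all, in either direction) or between imminent division and pre-S (4.07%), with 1 member at an unadjusted p under 0.05 in each by edgeR and by DESeq2, which also called none. The p-values rest on the spread between the 2 biological replicates of each group, pooled over the 4 groups and partly shared across start bins.

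Among the receptor chains, the Cd79a bin had 2122 and 2018 normalised contacts at 3 h, 2164 and 1960 at 10 h, 1739 and 1708 in imminent division and 1723 and 1792 in pre-S. All 4 libraries of 33 h lay below all 4 earlier ones. The log2 difference from 10 h was -0.26 ± 0.05 (SE, n = 2 against 2; edgeR FDR = 2.44e-04) in imminent division and -0.23 ± 0.05 (FDR = 0.00175) in pre-S. The Cd79b bin had more contacts than Cd79a in every library, with 3122 and 2981 at 3 h, 3205 and 3025 at 10 h, 2756 and 2810 in imminent division and 2826 and 2991 in pre-S. The sums are not corrected for MboI fragments (142 at Cd79b, 109 at Cd79a) or usable bins before and after (40 and 40 against 31 and 40). Cd79b fell by 0.16 ± 0.04 in imminent division (FDR = 0.00324). All 4 libraries of 33 h lay below those of 10 h, but the pre-S difference of -0.10 ± 0.04 did not pass (FDR = 0.0741). It was called lower with trimmed-mean (TMM) factors, with contacts summed over the whole chromosome under the study's filter on interactions and without either 3 h library, where 22.7%, 16.6%, 20.9% and 20.6% of all start bins were. Cd79b no longer passed in imminent division without 10 h replicate 1 (-0.13), nor Cd79a in pre-S without pre-S replicate 1 (-0.19).

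Cd22 and Ms4a1 went in different directions. At Cd22, the inhibitory coreceptor, the bin had 2704 and 2727 normalised contacts at 3 h, 2690 and 2540 at 10 h, 2117 and 2058 in imminent division and 2141 and 2260 in pre-S. In imminent division it fell by 20.1%, the most among the members (log2 difference -0.32 ± 0.04, FDR = 1.15e-05), and in pre-S it fell by 15.8% (-0.25 ± 0.04, FDR = 3.51e-04). The Ms4a1 bin had 2862 and 3147 contacts at 3 h, 2819 and 2812 at 10 h, 3052 and 3133 in imminent division and 2932 and 2950 in pre-S, so that the 3 h replicates spanned the values of imminent division. Its rise from 10 h was 0.14 ± 0.04 (FDR = 0.0102), but it turned to -0.04 with TMM factors and no longer passed without either 10 h library (0.13 in each case). In pre-S the difference was 0.06 ± 0.04 (FDR = 0.262).

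All 3 kinase genes were called lower than at 10 h in both 33 h groups. Syk, the kinase that is recruited to the receptor, had 2734 and 2669 contacts at 3 h, 2722 and 2681 at 10 h, 2340 and 2409 in imminent division and 2253 and 2332 in pre-S. All 4 libraries of 33 h lay below the early ones, and it fell by 0.18 ± 0.04 in imminent division (FDR = 6.26e-04) and by 0.24 ± 0.04 in pre-S (FDR = 2.88e-04). Lyn, which phosphorylates both receptor and inhibitory tails, had 1759 and 1821 at 3 h, 1801 and 1662 at 10 h, 1480 and 1391 in imminent division and 1544 and 1488 in pre-S, so that it fell by 17.0% (FDR = 1.95e-04) in imminent division and fell by 12.1% (FDR = 0.00776) in pre-S. Blk, the B lymphoid SRC family kinase, had 2067 and 1975 at 3 h, 2174 and 1970 at 10 h, 1845 and 1811 in imminent division and 1784 and 1888 in pre-S, so that it fell by 11.6% (FDR = 0.00426) in imminent division and fell by 11.2% (FDR = 0.0114) in pre-S. For both genes the libraries of 33 h lay below all 4 early ones. Blk no longer passed without 10 h replicate 1 in either comparison (-0.11 in both) or without pre-S replicate 1 in pre-S (-0.13), and Lyn no longer passed in pre-S without 10 h replicate 1 (-0.14) or pre-S replicate 2 (-0.16). Lyn was also not called in either comparison when contacts over the whole chromosome were summed with the study's filter on interactions (-0.04 with FDR = 0.455, and -0.03 with FDR = 0.696), nor in pre-S with TMM factors (-0.12) or a 1 Mb window (-0.13).

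The adaptor and the phospholipase genes were both called lower in imminent division than at 10 h. Blnk had 2370 and 2417 contacts at 3 h, 2305 and 2267 at 10 h, 2014 and 1927 in imminent division and 1968 and 2071 in pre-S, a fall of 0.21 ± 0.04 (FDR = 3.19e-04) in the first and of 0.18 ± 0.04 (FDR = 0.00337) in the second, which no longer passed without pre-S replicate 1 (-0.14). Plcg2 had 2784 and 2799 at 3 h, 2750 and 2602 at 10 h, 2415 and 2393 in imminent division and 2609 and 2588 in pre-S. It fell by 0.15 ± 0.04 in imminent division (FDR = 0.00291), a call lost without 10 h replicate 1 (-0.12), while its pre-S values overlapped those of 10 h (log2 difference -0.04 ± 0.04, FDR = 0.45). With TMM factors Plcg2 was called lower in pre-S too, as were 22.7% of all start bins. The direct difference between the 33 h groups at Plcg2 was -0.11 ± 0.04 with an FDR of 0.099, so the groups were not shown to differ.

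**Figure D1:**
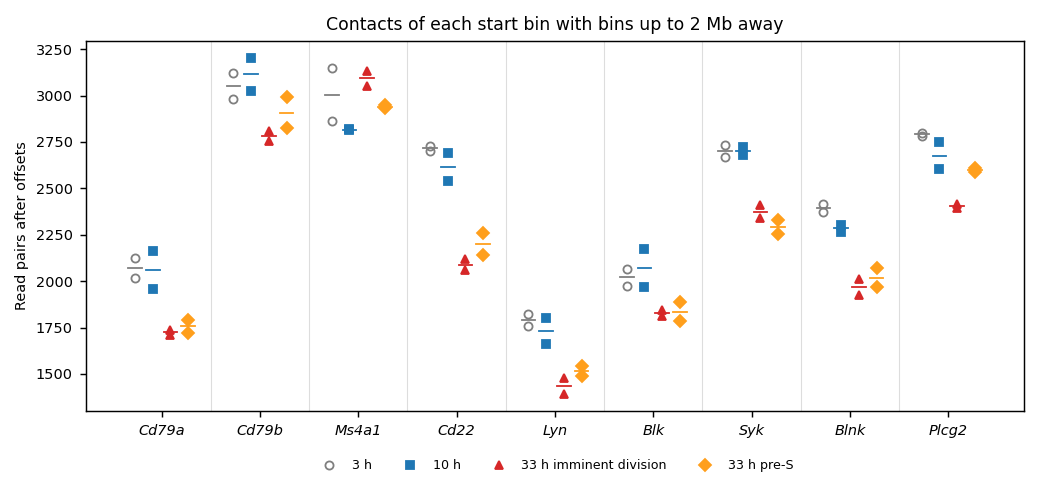
Normalised contacts (read pairs after offsets, axis not starting at 0) of each start bin with bins up to 2 Mb away; each point is 1 library, short lines are group means of 2. In 8 genes both imminent division libraries lie below both 10 h libraries, and in Ms4a1 they lie above.

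Contacts between chromosomes were lower than at 10 h at some members and not at others in imminent division, and lower at all 9 in pre-S (log2 differences of -0.05 to -0.20), as at 71.6% of all start bins. Per 1000000 interchromosomal pairs, the Cd22 bin had 30.6 and 30.65 contacts at 10 h, 26.73 and 27.15 in imminent division and 27.62 and 26.21 in pre-S, a log2 difference of -0.18 and -0.19. Cd22 had the largest decrease in imminent division. The other differences there were -0.14 at Cd79a, -0.08 at Blnk, -0.06 at Syk, -0.05 at Plcg2, -0.04 at Cd79b, 0.02 at Lyn and at Ms4a1, and 0.07 at Blk. Over all start bins the median difference was 0.01 in imminent division and -0.07 in pre-S. When each bin's interchromosomal coverage was added to the offsets, 3 members stayed called between imminent division and 10 h, Blk and Lyn lower and Ms4a1 higher, and Cd22 differed by -0.12 (FDR = 0.0803). Under this setting 17.9% of all start bins were lower and 18.3% higher, near the members' shares. In pre-S, 5 stayed called lower (Cd79a, Cd22, Blk, Syk and Lyn), where 11.5% of all start bins were. What sets a bin's coverage was not tested.

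The second question was at which distances the contacts changed. Each count was divided by the average count of all bin pairs at the same distance in the same library (observed over expected), which removes the difference in distance decay between libraries. From 50 to 200 kb both libraries of imminent division and both of pre-S lay below both of 10 h at 9 of 9 members. The same was true of 38.6% of all start bins for imminent division and of 53.9% for pre-S. From 250 to 500 kb this held for 8 members in imminent division (45.8% of start bins) and 7 in pre-S (47.4%), from 550 kb to 1 Mb for 7 (51.3%) and 7 (46.8%), and beyond 1 Mb for 2 (48.7%) and 5 (45.7%).

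Cd22 changed most between 550 kb and 1 Mb, with observed over expected values of 1.06 and 0.985 at 10 h, 0.543 and 0.505 in imminent division and 0.603 and 0.73 in pre-S. Both 33 h groups lay below all 4 early libraries there (1.04 and 1.06 at 3 h), and imminent division lay below pre-S, a difference that was not tested on this scale. No member had both libraries of either 33 h group above both of 10 h up to 500 kb, where 31.7% of start bins did for imminent division and 23.6% for pre-S from 50 to 200 kb, and 30.9% and 24.0% from 250 to 500 kb. Cd79b from 250 to 500 kb had 2.62 and 2.58 at 10 h, 1.53 and 1.69 in imminent division and 1.96 and 2.03 in pre-S. Syk from 550 kb to 1 Mb had 2.49 and 2.26 at 10 h, 1.53 and 1.68 in imminent division and 1.51 and 1.57 in pre-S.

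Lyn went the other way at long range, but from few contacts. From 550 kb to 1 Mb its observed over expected value was 0.042 and 0.076 at 10 h, 0.134 and 0.118 in imminent division and 0.079 and 0.064 in pre-S, where 1 is the genome average at that distance. The pre-S values overlapped those of 10 h, and 25.9% of start bins had both imminent division libraries above both of 10 h. Beyond 1 Mb Lyn, Blnk and Plcg2 had both imminent division libraries above both of 10 h (24.0% of start bins), and Lyn and Plcg2 both of pre-S (20.9%). The Plcg2 values were 0.356 and 0.335 at 10 h and 0.404 and 0.439 in imminent division. At Blk the groups overlapped from 250 to 500 kb, with 0.904 and 0.771 at 10 h and 0.82 and 0.824 in imminent division.

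**Figure D2:**
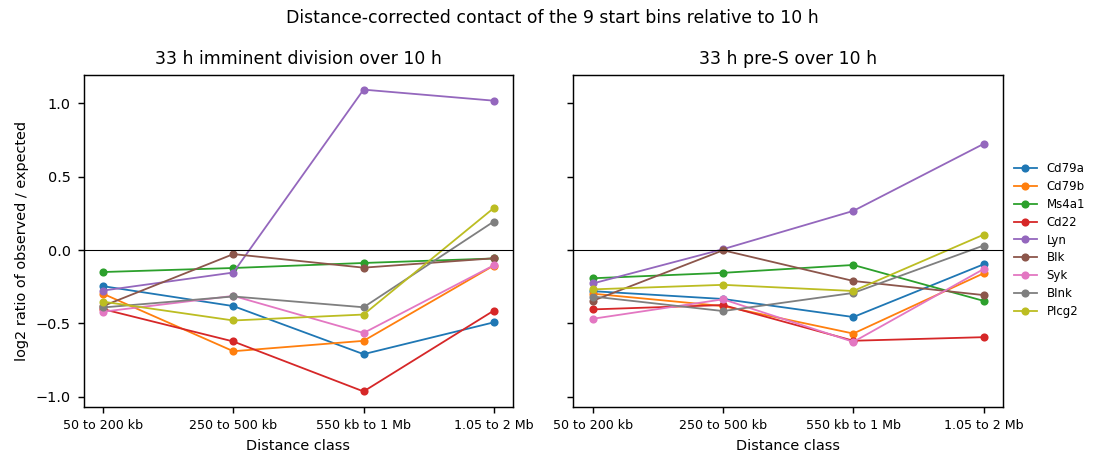
log2 ratio of the mean observed over expected contact (2 libraries) to that of 10 h, for imminent division and pre-S, in 4 distance classes; each line is 1 gene. All 9 genes lie below 0 from 50 to 200 kb, and the rise of Lyn beyond 550 kb starts from means of 0.059 and 0.112 at 10 h.

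The third question was which partner bins changed. Of the bin pairs that joined a member to a bin within 2 Mb, 365 had enough counts to be tested, from 13 for Lyn to 68 for Blk. Between imminent division and 10 h, 35 were weaker and 1 was stronger, or 9.59% weaker, where 2.55% of the 525459 tested pairs of all start bins were weaker and 0.824% stronger. The median log2 difference was -0.27 over the members' pairs and -0.05 over the pairs of all start bins. Cd22 had 11 weaker pairs of 37, Cd79b 9 of 52, Syk 7 of 47, Blnk 4 of 38, Cd79a 3 of 32 and Blk 1 of 68. Lyn, Ms4a1 and Plcg2 had none. At the start bin in the middle of the genome's distribution 1 pair was called and at the 95th percentile 7. DESeq2 called none of the 365, with 51 at an unadjusted p under 0.05 against 109 for edgeR. The share of all pairs called by DESeq2 is not given here, so its count does not set the members apart. Without any 1 of the 10 h or imminent division libraries, edgeR called fewer weaker pairs.

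Of the 11 weakened pairs of Cd22, 10 lay on the side of lower coordinates, 50 to 900 kb away, in a gene-rich stretch of chromosome 7. That side had 40 usable bins and the other 28, and the tested pairs were not counted by side. The strongest call was with chr7:30250271-30299867, 600 kb away, which holds the starts of Wdr62, Thap8 and Clip3. Its normalised counts were 41.2 and 35.7 at 3 h, 45.5 and 44.5 at 10 h, 12.0 and 14.7 in imminent division and 18.3 and 30.7 in pre-S. All 4 libraries of 33 h were below the early ones, and the pair fell to 0.301 of its 10 h level in imminent division (log2 difference -1.73 ± 0.27, edgeR FDR = 2.60e-06). On the other side of the Cd22 bin, only the neighbouring bin with Mag, Hamp2 and Hamp was weaker (-0.36 ± 0.10, FDR = 0.0218). The 2 strongest partners of Cd22 beyond 50 kb, at 200 kb (Rbm42, Haus5, Pmis2 and 2200002J24Rik) and 250 kb (Upk1a, Cox6b1 and Etv2), had observed over expected means of 3.01 and 2.98 and were not called in any comparison.

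Cd79b lost contacts on both sides. With chr11:105999972-106049962, 300 kb away, which holds the starts of Kcnh6 and Dcaf7, it had 114 and 125 normalised counts at 10 h, 63.9 and 61.2 in imminent division and 101 and 89.7 in pre-S. The 3 h replicates, 121 and 70, spanned almost this whole range. The decrease in imminent division was to 0.521 of 10 h (-0.94 ± 0.15, FDR = 1.34e-05). The bin 350 kb away that starts Cyb561, Ace and Ace3 had 83.8 and 54.3 at 3 h, 86.9 and 84.6 at 10 h, 36.2 and 47 in imminent division and 70.1 and 81.3 in pre-S. It was the only pair of a member that was weaker in imminent division than in pre-S (-0.84 ± 0.20, FDR = 0.0153), where 0.174% of the pairs of all start bins were, and it was not called without imminent division replicate 1 or either pre-S library (log2 differences of -0.66, -0.95 and -0.74).

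Syk had high contacts for their distance with far bins. Its 2 highest partners from 100 kb to 2 Mb by observed over expected count, 750 kb away at the start of Gadd45g, a stress-response gene, and 800 kb away at that of Sema4d, which encodes the semaphorin CD100, reached means of 6.1 and 5.93 times the expected count. With the Sema4d bin (chr13:51749977-51799975) Syk had 95.7 and 79.5 normalised counts at 3 h, 90.4 and 93.8 at 10 h, 55.8 and 40.4 in imminent division and 49.1 and 52.3 in pre-S. The 33 h groups overlapped each other and lay apart from the early ones. The pair was weaker in imminent division (-0.96 ± 0.17, FDR = 1.26e-04) and in pre-S (-0.87 ± 0.20, FDR = 0.0115). The Gadd45g bin was weaker in imminent division (-0.59 ± 0.17, FDR = 0.0324) and in pre-S its difference was -0.50 ± 0.19 (FDR = 0.243). A gene-free bin 500 kb away fell in both groups (-0.97 ± 0.19 and -0.92 ± 0.23). In pre-S neither this pair nor the Sema4d pair was called without any 1 of the 10 h or pre-S libraries, or by DESeq2.

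Blnk was weaker with chr19:40799938-40849944, 150 kb away at the start of Ccnj, a cyclin gene. The pair had 158 and 133 normalised counts at 3 h, 159 and 175 at 10 h, 102 in both imminent division libraries and 120 and 111 in pre-S, and was called in both comparisons (-0.72 ± 0.13, FDR = 8.11e-05, and -0.54 ± 0.14, FDR = 0.0399). The first call was lost without 10 h replicate 2 (-0.66) and the second without any 1 of the 10 h or pre-S libraries (-0.47 to -0.60) or after adding interchromosomal coverage (-0.34, FDR = 0.366). The bin next to Blnk, which holds the start of Dntt, the template-independent DNA polymerase of lymphocyte precursors, was weaker in imminent division (-0.29 ± 0.08, FDR = 0.0298). Cd79a was weaker with chr7:25750174-25799865, 900 kb away, which starts Hnrnpul1 and Axl, a receptor tyrosine kinase: 25 and 24.8 at 10 h against 6.94 and 7.73 in imminent division, with 14.4 and 14.8 at 3 h (-1.74 ± 0.36 against 10 h, FDR = 0.00101). The pair was not called without 10 h replicate 2 (-1.75, FDR = 0.064).

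Blk had the only stronger pair against 10 h, with a bin 250 kb away inside Xkr6. It rested on 6 and 5 reads at 10 h, 32 and 30 in imminent division, 10 and 6 in pre-S and 7 and 14 at 3 h (log2 difference 1.60 ± 0.42, FDR = 0.0208). No stronger pair was called without either 10 h library or without imminent division replicate 1. The bin before Blk, which lies inside Blk itself, was weaker in imminent division (-0.37 ± 0.08, FDR = 0.00381) and pre-S (-0.33 ± 0.09, FDR = 0.049). Neither call held without either 10 h library (-0.36 and -0.39 in imminent division, -0.33 and -0.35 in pre-S), nor the second without either pre-S library (-0.24 and -0.41) or with the replicate number as a block (-0.33, FDR = 0.0655). Between imminent division and pre-S, 1 pair was stronger (0.165% of pairs of all start bins), Cd22 with a bin 1700 kb away at Psmd8, Ggn, Spred3 and Fam98c. It had 26 reads in imminent division and 1 in pre-S, a ratio per read pair within chromosomes of 15.0 (exact 95% interval 2.46 to 614, counting error only). This pair was not called without imminent division replicate 2 or either pre-S library.

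Pre-S against 10 h gave 7 weaker pairs and none stronger, or 1.92%, where 0.397% of the pairs of all start bins were weaker and 0.151% stronger. Syk held 3 of them and Blk, Blnk, Cd22 and Cd79b 1 each. Fewer were called without any 1 of the 10 h or pre-S libraries, and DESeq2 called none, with 35 at an unadjusted p under 0.05. Of the 365 pairs, 287 had a negative difference in pre-S and 279 in imminent division, but these comparisons share the 10 h libraries. The median log2 difference in pre-S was -0.305 over the members' pairs and -0.10 over the pairs of all start bins. The share of negative differences over all start bins was not computed. Between 10 h and 3 h, no pair was called by edgeR or DESeq2 (0.00114% of the pairs of all start bins were stronger and 0.0% weaker), with 34 and 4 of the 365 at an unadjusted p under 0.05.

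Plcg2 and Ms4a1 kept strong partners that were not called. Plcg2 reached a mean of 5.3 times the expected count with a bin 350 kb away inside Bco1, with 6.51 and 5.13 at 10 h, 3.92 and 4.14 in imminent division and 4.83 and 5.14 in pre-S. Imminent division lay below all other libraries on this scale, yet the tested log2 difference from 10 h was -0.24 ± 0.12 (FDR = 0.324). Ms4a1 reached 3.87 times the expected count with the bin 350 kb away that starts its family members Ms4a6d, Ms4a2 and Ms4a3 (3.51 and 4.51 at 10 h, 3.29 and 4.1 in imminent division), and 3.69 with the bin 500 kb away that starts Mrpl16, a mitochondrial ribosomal protein gene. Lyn reached 3.11 with a bin over its own gene body, and the bin beyond it, at Rps20, gave a difference of -0.39 ± 0.12 in imminent division (FDR = 0.0501). Blk reached 2.17 with a bin 1800 kb away at Kcnrg, from 85 reads in all 8 libraries.

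**Figure D3:**
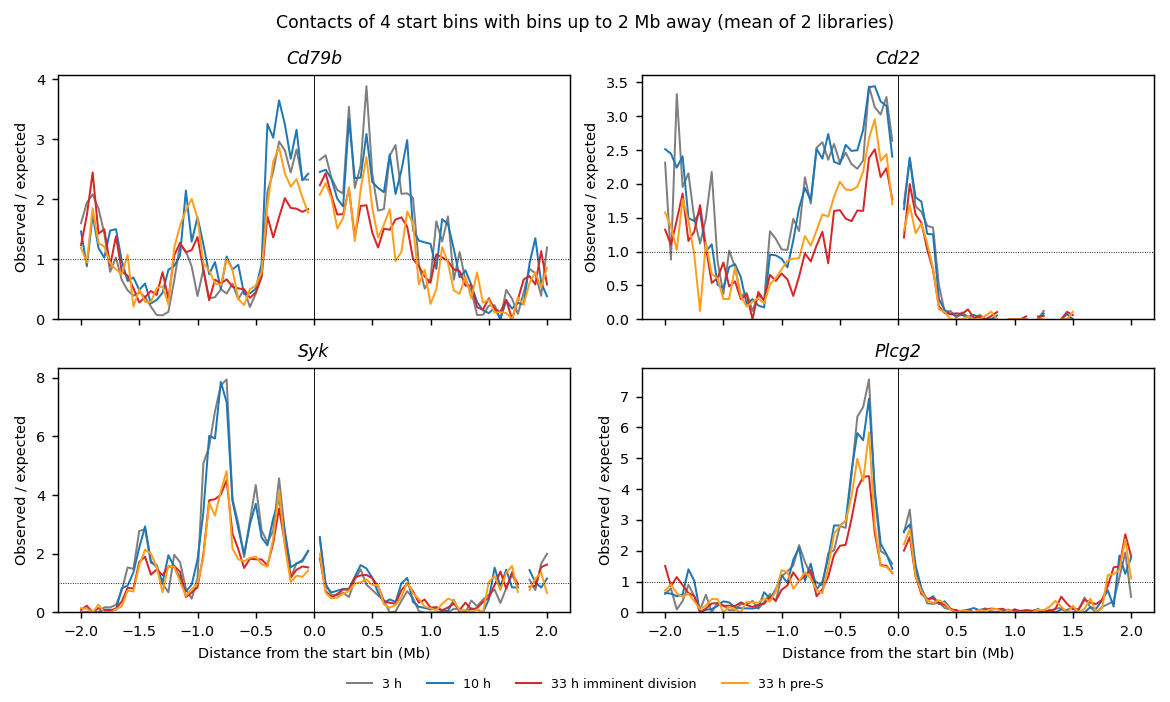
Observed over expected contact (mean of 2 libraries per group) of the Cd79b, Cd22, Syk and Plcg2 start bins with each usable 50 kb bin up to 2 Mb away, against distance in Mb; the dotted line at 1 is the average at that distance. The lines of imminent division run under those of 10 h over the peaks, and the Cd22 and Plcg2 profiles drop to near 0 within 0.5 Mb after the start bin.

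Members on the same chromosome could be set against each other. Cd79a and Cd22, 6 Mb apart, were joined by 38 reads in all 8 libraries, with 9 and 4 at 3 h, 4 and 5 at 10 h, 2 and 9 in imminent division and 2 and 3 in pre-S. Ms4a1 and Blnk, 29.7 Mb apart, were joined by 31, with 3 and 6 at 3 h, 8 and 2 at 10 h, 4 and 6 in imminent division and 1 in each pre-S library. Differences between groups were not tested for these pairs.

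The fourth measure was the insulation score, the log2 mean contact across a bin between the 500 kb on either side, relative to the median of its chromosome. Low values mark insulated places. The score is not corrected for the contact level of the flanks, so a general loss of contact lowers it too. The members lay high, between the 76.8th (Blnk) and the 96.6th (Syk) percentile of all bins. In imminent division the score was lower than at 10 h at 9 of 9 members (limma, FDR under 5%), where 34.1% of all 46781 bins and 56.6% of the start bins were lower. In pre-S it was lower at 8, all but Blk (35.7% and 59.2%). No member was called by limma between 10 h and 3 h (0.293% of all bins), with 2 at an unadjusted p under 0.05. The median difference was -0.47 over the members in imminent division and -0.20 over all start bins, and -0.32 and -0.21 in pre-S.

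In imminent division the largest decrease among the members was at Plcg2, with scores of 1.51 and 1.31 at 3 h, 1.49 and 1.47 at 10 h, 0.553 and 0.716 in imminent division and 0.8 and 0.944 in pre-S. The difference from 10 h was -0.85 ± 0.08 in imminent division (FDR = 9.26e-06) and -0.61 ± 0.08 in pre-S (FDR = 1.54e-04). Syk had 1.69 and 1.53 at 3 h, 1.77 and 1.74 at 10 h, 0.9 and 1.07 in imminent division and 1.1 and 1.15 in pre-S. It fell by 0.77 ± 0.07 and 0.63 ± 0.07, and neither gene's 33 h values reached its early ones.

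Cd22 and Cd79b separated the 2 groups of 33 h. Cd22 had scores of 1.13 and 0.919 at 3 h, 1.23 and 1.27 at 10 h, 0.469 and 0.536 in imminent division and 0.824 and 0.897 in pre-S. Cd79b had 0.991 and 0.926, 0.99 and 1.04, 0.418 and 0.399, and 0.72 and 0.706 in the same order. Imminent division was lower than pre-S by 0.36 ± 0.07 at Cd22 (FDR = 0.00933) and by 0.30 ± 0.06 at Cd79b (FDR = 0.00685), where 3.81% of all bins and 5.27% of start bins were lower. Neither was called without pre-S replicate 1 or 2 (-0.39 and -0.32 at Cd22, -0.30 and -0.31 at Cd79b) or with a window of 250 kb (-0.19 and -0.14), and Cd22 was not called without imminent division replicate 1 (-0.32).

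Blnk fell to overlapping levels in both groups, from 0.856 and 0.868 at 10 h to 0.38 and 0.399 in imminent division and 0.39 and 0.408 in pre-S. Cd79a, Ms4a1, Lyn and Blk had the smaller decreases in imminent division, of 0.28 to 0.34, at FDR of 3.57e-04 to 0.00671. Blk was not called without 10 h replicate 1 (-0.27) or imminent division replicate 1 (-0.20), and Lyn was not called in pre-S without any 1 of the 10 h or pre-S libraries (-0.16 to -0.21) or with a 1 Mb window (-0.11, FDR = 0.103). When the scores were quantile-normalised, which removes a narrowing of the whole distribution, these 4 were no longer called (differences of -0.00 at Cd79a, 0.02 at Ms4a1, -0.04 at Lyn and 0.07 at Blk). Cd79b, Cd22, Syk, Blnk and Plcg2 stayed lower, as 40.8% of start bins did. In pre-S, 4 stayed lower and Blk was called higher, near the shares of all start bins under this setting (40.8% lower and 10.5% higher).

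**Figure D4:**
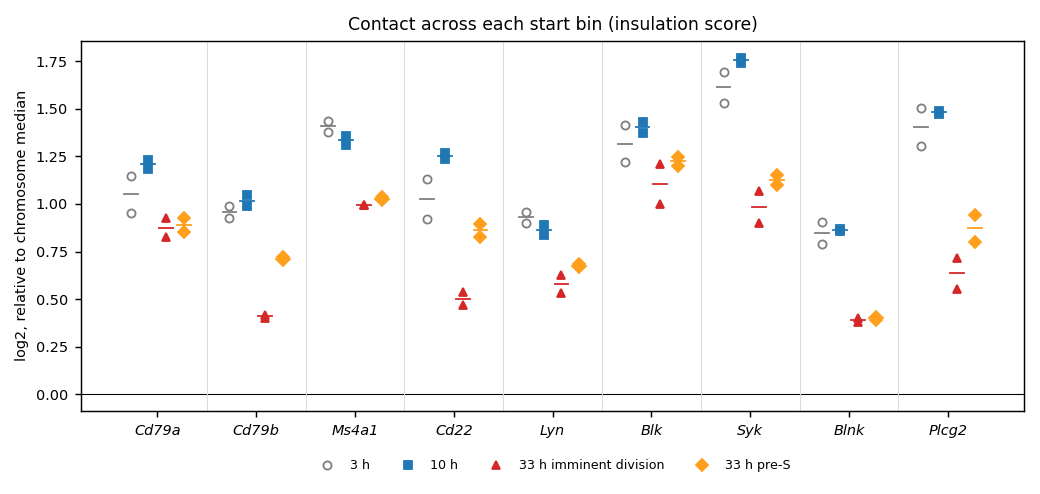
Insulation score (log2 contact across the start bin, relative to the chromosome median, where lower is less contact across the bin) in each library, with short lines as group means of 2. Imminent division lies below 10 h in all 9 genes, and was called lower than pre-S at Cd79b and Cd22.

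The boundary ratio compares contacts on the side of lower coordinates with those on the other side of a 100 kb region, over 1 Mb, and a large size in either direction marks an edge of a domain. At 10 h the log2 ratio ran from a mean of -2.065 at Lyn and -1.18 at Cd79a to 1.04 at Plcg2 and 1.103 at Blk. In imminent division 3 members differed from 10 h (edgeR glmTreat, fold over 1.1, FDR under 5%), 2 lower and 1 higher, where 9.28% of 23743 regions were lower and 8.79% higher. By size in either direction, 13.7% of regions were called with a smaller ratio than at 10 h and 4.4% with a larger one. Blk had ratios of 0.947 and 0.918 at 3 h, 1.1 and 1.11 at 10 h, 0.76 and 0.769 in imminent division and 0.971 and 1.13 in pre-S. Imminent division lay below all other libraries (-0.34 against 10 h, FDR = 5.68e-04, and -0.28 against pre-S, FDR = 0.0465).

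Lyn had -2.15 and -1.98 at 10 h and -1.66 and -1.7 in imminent division, a change of 0.38 (FDR = 5.63e-04) towards balance. The region lies near the end of its chromosome, so its short side is cut off. Cd79b had 0.214 and 0.239 at 10 h, -0.044 and -0.201 in imminent division and 0.149 and 0.218 in pre-S, with 0.15 and -0.052 at 3 h. Its ratio was below 0 in imminent division, as in 1 of the 3 h libraries (-0.36 against 10 h, FDR = 2.19e-05, and -0.31 against pre-S, FDR = 0.00558; 2.81% of all regions were lower in imminent division than in pre-S). Without imminent division replicate 2 or pre-S replicate 2, neither difference from pre-S was called (-0.23 and -0.28 at Cd79b, -0.28 and -0.21 at Blk), and Blk was not called without imminent division replicate 1 either (-0.28). In pre-S against 10 h and in 10 h against 3 h no member was called by edgeR, with 1 of 9 at an unadjusted p under 0.05 in each (4.8% and 0.383% of regions were called).

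**Figure D5:**
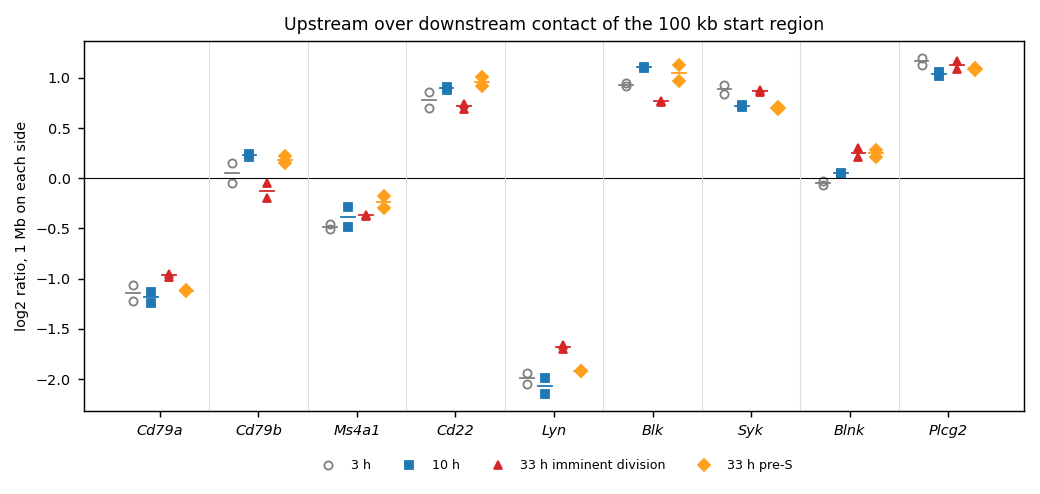
log2 ratio of upstream (lower coordinates) to downstream contact of the 100 kb start region over 1 Mb on each side, per library; short lines are group means of 2. The imminent division points of Blk and Lyn lie nearer 0 than those of the other groups, and those of Cd79b are below 0, as is 1 of its 3 h points.

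All 9 start regions lay in the A compartment in every library, with components between 1.07 and 1.53 in units of the standard deviation along each chromosome, and 77.1% of all start bins lay in A. Differences were small. In imminent division 2 members were called lower than at 10 h (limma; 15.5% of all 23789 regions). Blnk had 1.33 and 1.34 at 10 h and 1.27 and 1.23 in imminent division (-0.09 ± 0.03, FDR = 0.0278), and Lyn had 1.18 in both 10 h libraries against 1.07 and 1.13 (-0.08 ± 0.03, FDR = 0.0404). Neither region changed compartment. Blnk was not called without either 10 h library or either imminent division library (FDR of 0.0819, 0.149, 0.052 and 0.195), nor Lyn without either 10 h library, either pre-S library or imminent division replicate 1 (0.131, 0.164, 0.0541, 0.0541 and 0.337). No member was called by limma in the other 3 comparisons, where 5.17% (10 h against 3 h), 23.5% (pre-S against 10 h) and 17.3% (imminent division against pre-S) of all regions were, and 0, 1 and 2 members had an unadjusted p under 0.05.

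A list of 46 other genes of the pathway was set beside the members. Btk lies on the X chromosome and was not tested. Of the other 45, summed contacts in imminent division were lower than at 10 h at 21 and higher at 7, with a median of -0.09, and 17 were not called. In pre-S 13 were lower and 6 higher. None was called by edgeR between 10 h and 3 h, and only Grb2, an adaptor to the RAS pathway, was lower in imminent division than in pre-S (-0.14 ± 0.04, FDR = 0.0394). Of all start bins 21.9% were lower and 22.3% higher in imminent division, and 18.1% lower and 19.2% higher in pre-S. Among the inhibitors 9 of 11 were lower and 1 higher in imminent division, and the difference between the groups of the list was not tested. Pirb, an inhibitory receptor whose bin also starts Rps9, had 822 and 815 contacts at 10 h, 550 in both imminent division libraries and 558 and 538 in pre-S, the lowest fold of the list (0.672 and 0.67). The Pirb bin, chr7:3699748-3750040, lies near the end of its chromosome, as Lyn does, and its usable bins on each side are not given here. The bins of Ptpn6, the phosphatase SHP-1, which also starts Emg1, Phb2 and Grcc10, and of Dok3, which also starts Pdlim7 and Ddx41, fell by 0.30 ± 0.04 and 0.25 ± 0.04 in imminent division. In pre-S, Dok3 fell by 0.24 ± 0.04 and Inpp5d, the phosphatase SHIP-1, by 0.28 ± 0.04.

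The genes that rose were of several kinds. Cblb, a ubiquitin ligase that restrains receptor signalling, had 2075 and 2190 contacts at 10 h, 2652 and 2439 in imminent division and 2796 and 2579 in pre-S (0.25 ± 0.05 and 0.33 ± 0.05). Pik3r1, the regulatory subunit of phosphoinositide 3-kinase, rose by 0.19 ± 0.04 and 0.22 ± 0.04. Bank1, a B cell scaffold protein, rose by 0.20 ± 0.05 in pre-S. By group in imminent division, 4 of 9 kinases and adaptors fell and none rose, 2 of 10 lipid and calcium genes fell and 3 rose, 3 of 8 exchange factors and MAP kinases fell and 1 rose, 2 of 3 genes of the NF-κB arm fell, and 1 of 4 coreceptors fell and 2 rose. The insulation score was lower at 38 of the 44 of these genes that had one, with a median difference of -0.40, where 56.6% of all start bins were lower with a median of -0.20.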

How the data were processed

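The authors aligned the HiC reads to mm10 (GRCm38) and deposited counts of read pairs between 50 kb bins, 1 matrix per library. The coordinates of the bins were rebuilt by placing MboI fragments by their midpoints. On the 19 autosomes, 756 of 48088 bins were left out for unknown bases or extreme coverage. The study's list of excluded regions was not used here. A gene was placed by its GENCODE vM21 start. Start bins needed 200 summed counts. Bin pairs were tested where they lay 4 times above the interchromosomal background and had 10 counts or more. Summed contacts and bin pairs were tested with edgeR 4.0.16 (R 4.3.3) on loess offsets over all 8 libraries, boundary ratios (100 kb regions, 1 Mb each side) with glmTreat, and insulation and compartment scores with limma 3.58.1. P-values were adjusted over all features by Benjamini-Hochberg. DESeq2 1.42.0 was an alternative. The scripts were tested on simulated data.

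The members and lists were chosen with earlier results of these data known. The members were always named, with, for each, the 2 bins 100 kb to 2 Mb away with the highest observed over expected count and the called pair with the smallest p in each comparison, and at most 3 other pathway genes in each direction and comparison. The other called pairs that are named (Mag, Dntt, Xkr6 and the gene-free bin of Syk) were chosen after their values were seen. Some items that this rule names, and 1 marker of the sort, are not reported here.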

Additional observations from a re-analysis of the deposited data

How the results depend on the processing

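Each result was recomputed under other settings. Of 696 values for single members or bin pairs that were called, 594 kept their direction and their side of the threshold, 98 kept the direction only and 4 turned direction. For bin pairs these were only the smallest-p called pair of each member and comparison. Some settings left out a library of a group not compared. Calls that held under every setting were 0 of 9 by summed contacts in imminent division against 10 h and 2 of 6 in pre-S. They were 5 of 9 and 4 of 8 by insulation, and 1 of 6 and 0 of 5 by bin pair. By boundary ratio 3 of 3 held in imminent division, and by compartment 0 of 2. None of those between the 33 h groups held. The turned values were the summed contacts of Ms4a1 with TMM factors (-0.044) and, with quantile normalization, the insulation scores of Ms4a1 (0.022) and Blk (0.072) in imminent division and of Lyn in pre-S (0.025). The cause was not tested. For summed contacts, adding bin coverage left 3 members called in imminent division against 10 h, and the study's filter over the whole chromosome called 2 between imminent division and pre-S (19.4% of all start bins). For insulation, quantile normalization called 1 member between 10 h and 3 h (2.08% of all bins) and 5 in each 33 h group against 10 h (43.9% and 48.9%). A 250 kb window called 0 between the 33 h groups (11.3% of all bins). Without a fold threshold the boundary ratio was called at 2 members between 10 h and 3 h, 7 in imminent division, 2 in pre-S and 5 between the 33 h groups (5.35%, 37.2%, 18.9% and 21.1% of all regions), and 250 kb bins gave 5, 4 and 2 compartment calls in the last 3 comparisons (50.5%, 59.4% and 29.6% of all bins). For bin pairs, DESeq2 called 0 in each comparison (51, 35 and 10 at an unadjusted p under 0.05 in imminent division, pre-S and between them), and its share of all pairs is not given here. TMM factors called 55 and 23 in imminent division and pre-S (3.87% and 0.771% of all pairs), and bin coverage 3 in pre-S and 5 in imminent division against pre-S (0.601% and 1.68%). In 100 kb bins the calls were 2 for 10 h against 3 h, 26 in pre-S and 4 in imminent division against pre-S (0.00774%, 0.7% and 0.374%). Leaving out 1 library at a time, with the lone replicate assumed to vary like the other groups, gave 5 to 9 members by summed contacts in imminent division (23.9% to 49.9% of all start bins) and 3 to 7 in pre-S (12.6% to 42.8%). It gave 0 to 2 by insulation between 10 h and 3 h, 8 to 9 in imminent division, 7 to 9 in pre-S and 0 to 3 between the 33 h groups (0.0% to 11.6%, 35.1% to 69.1%, 33.7% to 68.5% and 0.851% to 28.8% of all bins). It gave 3 by boundary ratio in imminent division (13.5% to 18.4% of all regions) and 0 to 2 between the 33 h groups (2.6% to 5.74%), and by compartment 0 to 2 in imminent division, 0 to 1 in pre-S and 0 to 1 between them (19.2% to 33.0%, 12.1% to 28.0% and 9.31% to 21.3%). It gave 7 to 44 pairs in imminent division, 0 to 10 in pre-S and 0 to 3 between the 33 h groups (0.207% to 2.38%, 0.0519% to 0.731% and 0.0488% to 0.461% of all pairs).

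Replicate numbers did not pair the samples: same-numbered libraries of the 6 pairs of groups correlated between -0.44 and 0.14. With the replicate block, the pre-S calls of the Blk pair at 50 kb (-0.33, FDR = 0.0655) and the Cd79b pair at 400 kb (-0.78, FDR = 0.0543) were lost. No count of members moved by over 1.5 times. The depth of 88703088 to 218945191 read pairs leaves few counts in a distant 50 kb bin pair, so a difference that was not called there may lie below what this depth can show.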
